A study of Mus musculus with 12 samples.

Results

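The star strands of mouse miRNAs, 221 in number, were examined in quadriceps muscle of wild-type and cofilin-2 null mice. They were the entries of the array whose name ends in a star and that are let-7 miRNAs or carry a number under 1000, with the miRNAs of the Dlk1-Dio3 imprinted cluster and of several repetitive or imprinted families left out by number. That choice took 221 of the 330 star entries and of the 1096 entries in all, leaving out 51 with a number of 1000 or higher and 58 by the numbers listed, and it used no measured value. The samples were quadriceps of 6 wild-type mice (WT1 to WT6) and 6 cofilin-2 null mice (KO1 to KO6), all of strain C57Bl/6 and taken at postnatal day 7, with 1 mouse per sample. The methods describe the WT mice as littermates of the KO mice. Cofilin-2 is the actin-severing protein of skeletal muscle, and mice without it develop a myopathy in the first days of life. Total RNA was hybridized to an array for the mouse miRNAs of miRBase version 17. All WT samples were labelled with Cy5 and all KO samples with Cy3, so a difference between genotypes and a difference between dyes cannot be told apart in any comparison here.

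A miRNA is cut from a hairpin transcript by Drosha in the nucleus and Dicer in the cytoplasm, which leaves a short duplex of 2 strands. An Argonaute protein usually keeps one of them, the guide, and the other, the passenger, is mostly degraded. In older releases of miRBase the star marked the strand found less often, and later releases name the strands by their arm of the hairpin, 5p or 3p. Both strands come from the same precursor, so their ratio depends on strand choice and strand stability, and their joint level on transcription and cutting. Bases 2 to 8 of the loaded strand, the seed, select its targets, and a passenger strand that is loaded therefore addresses other mRNAs than its guide.

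Some of the strands named in the results are printed here 5′ to 3′ with the seed in capitals, as RefSeq gives them for build GRCm38.p6. The first set holds the star strands past the unadjusted threshold in KO against WT for which a sequence was matched.
miR-149*: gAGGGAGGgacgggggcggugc
miR-211*: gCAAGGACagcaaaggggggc
miR-193b*: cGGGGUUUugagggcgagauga
miR-210*: aGCCACUGcccaccgcacacug
miR-17*: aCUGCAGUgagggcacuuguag
They map to chr1:92850421-92850442 on the plus strand (miR-149*, within the span of the glypican gene Gpc1), chr7:64205868-64205888 on the plus strand (miR-211*, within the span of the channel gene Trpm1) and chr16:13449533-13449554 on the plus strand (miR-193b*). miR-210* lies at chr7:141221445-141221466 on the minus strand and miR-17* at chr14:115043721-115043742 on the plus strand.

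The second set pairs star and unstarred strands of the 3 hairpins whose strand difference passed the adjusted threshold when KO1 was left out. With all samples none of them passed it. The unadjusted threshold was then passed by miR-99b* and by miR-328*, for which no sequence was matched.
miR-99b*: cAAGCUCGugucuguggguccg
miR-99b: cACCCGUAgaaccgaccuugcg
miR-18a*: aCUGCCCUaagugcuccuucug
miR-18a: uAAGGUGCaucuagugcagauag
miR-210: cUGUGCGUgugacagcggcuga
miR-99b* lies at chr17:17830232-17830253 and miR-99b at chr17:17830194-17830215, both on the plus strand. miR-18a* lies at chr14:115043908-115043929 and miR-18a at chr14:115043867-115043889, both on the plus strand and close to miR-17*. The guide miR-210 lies at chr7:141221407-141221428 on the minus strand. In each pair the capitals differ between the strands. Among the 31 tested star strands with a sequence there were 31 distinct seeds.

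Most star strands were too dim to test. Of the 221, 36 (16.3%) had a mean normalized intensity of at least 32 over the 12 samples, whereas 38.0% of the 766 unstarred entries did. The other 185 had mean intensities of 1.25 to 31.6 with a median of 5.92, and 31 of them reached 32 in at least 1 sample. Of the 36, 33 had a mean of at least 32 in both groups and 3 in KO alone (miR-193b*, miR-99b* and miR-138-1*), and those 3 could pass only through the group in which they were higher. An unstarred entry was present for 220 of the 221. In 22 pairs both strands reached the limit, in 88 only the unstarred strand, in 13 only the star strand and in 97 neither. In the 13 pairs in which the star strand alone reached the limit, the unstarred means lay between 2.08 and 29.1. The brightness of different probes does not compare their miRNA levels, so these counts describe the array and not an order of abundance.

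Summed intensities were close between samples, at 594311 to 636136. KO1 stood apart from its group, with a mean correlation to the other KO samples of 0.848 across the tested entries. It held the lowest value of 18 of the 36 star strands (50%), and the lowest of 24.6% of all entries tested, so results that rest on it are also given without it. KO2 held the highest value of 13 of the 36 (36.1%), and the highest of 14.3% of all entries tested. KO1 also held the highest value of 7 of the 36 (19.4%), and the highest of 19.2% of all entries tested. Leaving out KO1 therefore removes more lowest than highest values of the star strands and keeps the high ones of KO2. Of 4 muscle miRNAs listed as markers, the 3 measured here, miR-133a, miR-133b and miR-206, summed to 35765 to 48020 in WT and 31254 to 44055 in KO. Of the markers of other cells, the endothelial miR-126-3p lay between 2230 and 4741 in WT and between 760 and 2705 in KO. The red blood cell pair miR-451 and miR-144 summed to 49 to 420 in WT and 18 to 318 in KO, and miR-144 alone did not exceed 6. The white blood cell miRNAs miR-142-3p and miR-223 summed to 11 to 17 and 3 to 17, and the neuronal miRNAs miR-124 and miR-9 to 5 to 17 and 6 to 38. In whole muscle, fewer cells of a type and less miRNA per cell cannot be told apart, and the part of these markers in the results was not tested.

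To ask whether loss of cofilin-2 went with altered passenger strands, KO was compared with WT by limma over all 370 entries tested. Of the 36 star strands, 5 were higher and 1 was lower in KO at an unadjusted p under 0.05. The higher strands were miR-328*, miR-149*, miR-193b*, miR-211* and miR-210*, and the lower one was miR-17*. Of these, miR-193b* had reached the limit for testing only through KO. The 6 strands are 16.7% of the star strands, against 19.5% of all entries tested, and the entries called higher made up 9.73% of all. None of the 36 passed after Benjamini-Hochberg adjustment by limma (smallest adjusted p = 0.0615), where 1.35% of all entries did and 6 of the 36 passed unadjusted. The t-test that the methods name for mRNA passed 1 after the same adjustment. The median log2 change of the 36 was -0.02 and that of all entries -0.08, with 16 star strands above 0 and 20 below. The share of star strands called was thus close to that of the array as a whole.

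**Figure D1:**
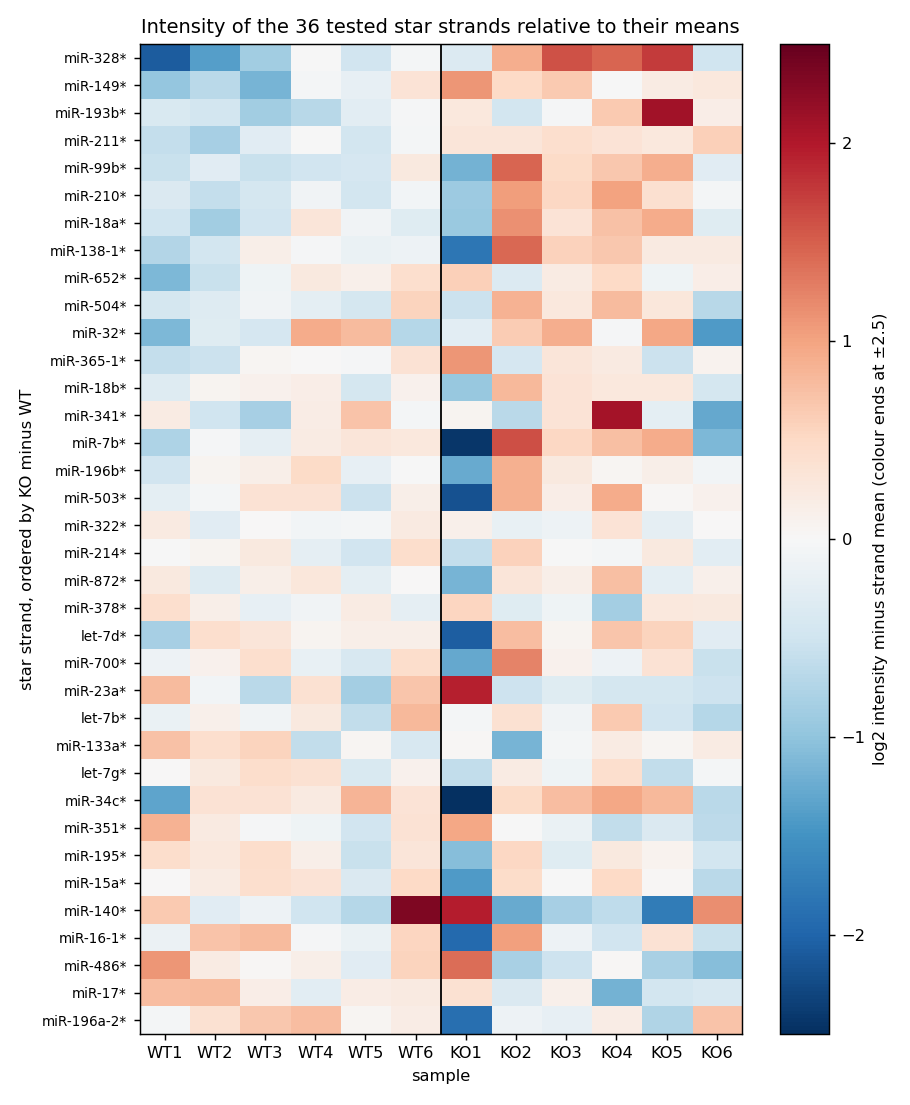
Each line of the heat map is 1 of the 36 tested star strands and each column 1 sample, and the colour gives the log2 intensity minus the mean of that strand over the 12 samples. Strands are ordered from the highest to the lowest log2 change in KO, 1.62 to -0.68, and the KO1 column holds the lowest value of 18 strands.

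miR-149* was the brightest star strand. It ranged from 2804 to 7989 in WT (median 4685) and from 6232 to 13394 in KO (median 8192.5), and 3 of the 6 KO samples lay above every WT sample. The mean was 4902 ± 1966 for WT and 8860 ± 2569 for KO (SD, 6 mice each), a KO/WT ratio of 1.81. By limma the log2 change was 0.90 with a standard error of 0.285 (adjusted p = 0.0955). An exact permutation test gave p = 0.013, two-sided. Its unadjusted p stayed under 0.05 in each of the 12 fits that left out 1 sample. The unstarred miR-149 was dim, with a mean of 24.9, and was not tested.

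The largest change among the 36 was that of miR-328*. Its intensity lay between 84 and 353 in WT (median 223.5) and between 249 and 1191 in KO (median 817). The 2 dimmest KO samples, KO1 at 279 and KO6 at 249, lay within the WT range, and the other 4 lay above all WT samples. Means were 227 ± 109 for WT and 737 ± 406 for KO (SD, 6 mice each), a KO/WT ratio of 3.24. By limma the log2 change was 1.62 with a standard error of 0.474 (adjusted p = 0.0896), and without KO1 it was 1.85 (adjusted p = 0.0267).

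miR-211* alone of the 36 had groups that did not overlap (2.78%, where 2.43% of all entries did not overlap). miR-211 is encoded within Trpm1, a gene of pigment cells and retina. The star strand ranged from 24 to 42 in WT (median 33) and from 51 to 64 in KO (median 53). Means were 33.5 ± 7.18 for WT and 55.0 ± 4.90 for KO (SD, 6 mice each), a KO/WT ratio of 1.64. The log2 change of 0.74 had a standard error of 0.187 and the smallest adjusted p of the 36, 0.0615 from limma. The exact permutation p was 0.0022, the smallest that the 924 assignments allow. These are dim values, near the limit of 32 in WT, and the unstarred miR-211, with a mean of 29.1, was not tested.

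miR-193b* and miR-210* were the remaining strands that were higher at the unadjusted threshold. miR-193b* had values of 15 to 27 in WT (median 20.5) and 20 to 117 in KO (median 32). It is one of the 3 strands whose WT mean was under 32, and its highest value, 117 in KO5, was far from the other KO values of 20 to 43. By limma the log2 change was 0.90 with a standard error of 0.358 (adjusted p = 0.171). With KO4 or KO5 left out its mean fell below the limit for testing, and the unadjusted call held in 9 of the other 10 such fits. miR-210* is the passenger of miR-210, a miRNA induced by low oxygen. It ranged from 64 to 92 in WT (median 73) and from 51 to 198 in KO (median 132), with 5 KO samples above every WT sample and KO1 below. By limma the log2 change was 0.66 with a standard error of 0.305 (adjusted p = 0.248), and the unadjusted call held in 3 of 12 fits with 1 sample fewer. Without KO1 the change was 0.91 (adjusted p = 0.0256 from limma), and without KO2, its highest sample, it was 0.52 (adjusted p = 0.406).

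miR-17* was the 1 star strand lower in KO. It comes from the miR-17 cluster, which is highly expressed in dividing cells. Its intensity was 32 to 67 in WT (median 44.5) and 17 to 50 in KO (median 29.5), with 4 KO samples below every WT sample. The means of 49.5 ± 14 for WT and 32.7 ± 11.6 for KO (SD, 6 mice each) gave a KO/WT ratio of 0.660. By limma the log2 change was -0.63 with a standard error of 0.278 (adjusted p = 0.223), and 4 of the 12 fits without 1 sample kept the unadjusted call. Its guide miR-17 ranged from 472 to 744 in WT (median 595.5) and from 229 to 592 in KO (median 310), a log2 change of -0.81 (adjusted p = 0.0896 from limma).

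**Figure D2:**
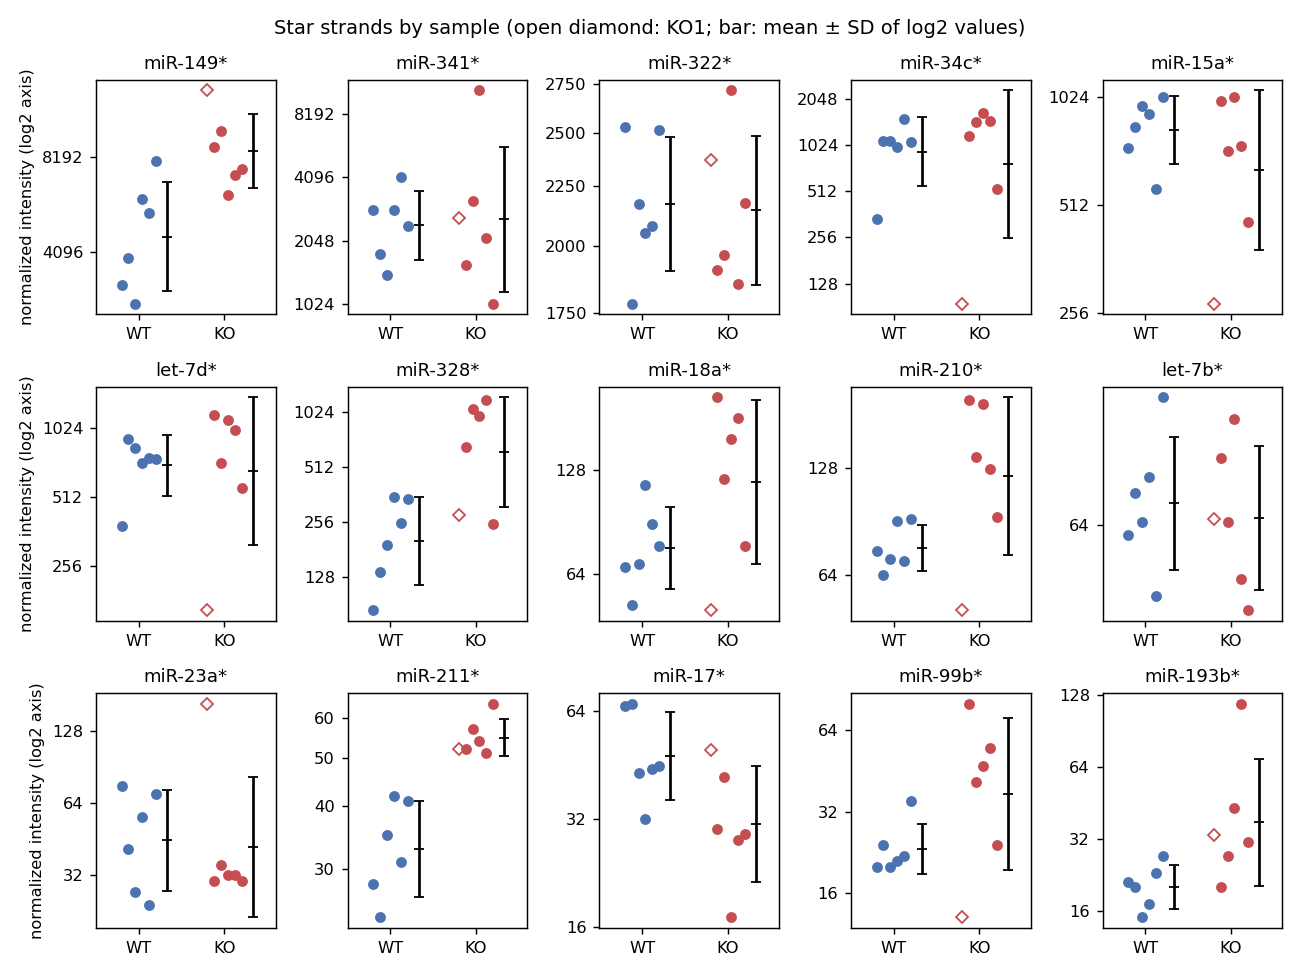
Normalized intensity on a log2 axis is shown for 15 star strands in each of the 6 WT (blue) and 6 KO (red) samples, with KO1 as an open diamond and a bar for the mean ± SD of the log2 values. The miR-211* groups do not overlap, 24 to 42 against 51 to 64, and KO1 is the lowest KO sample for miR-34c*, miR-15a*, let-7d*, miR-18a*, miR-210* and miR-99b* and the highest for miR-149*, miR-23a* and miR-17*.

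The other bright star strands did not pass either threshold. miR-341*, whose hairpin lies on chromosome 12 within the span of Rian, a noncoding gene of the Dlk1-Dio3 region, had 1398 to 4092 in WT (median 2630.5) and 1027 to 10600 in KO (median 2362.5). KO4 alone reached 10600, and its guide miR-341 was also highest there, at 160. miR-322* was the steadiest of the bright strands. miR-322, the mouse counterpart of human miR-424, is a member of the miR-15 and miR-16 family that rises as muscle cells differentiate. Its star strand ranged from 1783 to 2526 in WT (median 2126) and from 1855 to 2717 in KO (median 2069.5), and its log2 change of -0.02 had a 95% interval of -0.40 to 0.36. miR-34c* comes from a family of p53 targets. It ranged from 337 to 1510 in WT (median 1072.5) and from 95 to 1654 in KO (median 1301.5), and WT1 and KO1 were far below the rest. For miR-15a* the values were 568 to 1029 in WT (median 884) and 272 to 1029 in KO (median 736), with overlapping groups and a log2 change of -0.37 (adjusted p = 0.577 from limma). let-7d* had 383 to 919 in WT (median 753) and 163 to 1170 in KO (median 860.5), again with WT1 and KO1 lowest in their groups.

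The other 21 tested star strands had mean intensities of 35.8 to 656 and log2 changes of -0.68 to 0.45, 8 above 0 and 13 below, with a smallest adjusted p of 0.327 from limma. The following 3 were named after their values were seen. miR-140* varied most within the groups. miR-140 is the miRNA of cartilage, and its star strand ranged from 270 to 2241 in WT (median 385) and from 132 to 1732 in KO (median 268). WT6, KO1 and KO6 were its highest samples, so the groups overlapped over nearly their whole range. miR-196a-2*, from a hairpin within the Hox clusters, had the lowest log2 change of the 36. It ranged from 57 to 101 in WT (median 72) and from 16 to 97 in KO (median 52.5), with KO1 lowest. miR-133a*, the passenger of a miRNA specific to heart and skeletal muscle, ranged from 249 to 639 in WT (median 453.5) and from 170 to 442 in KO (median 392.5). Its groups overlapped as well.

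More entries passed when KO1 was left out. Of the 37 star strands then tested, 11 (29.7%) passed the unadjusted threshold, against 29.2% of all entries. The 11 include 3 with a WT mean under 32 (miR-193b*, miR-99b* and miR-138-1*), which reached the limit for testing only through KO, so the count is raised by the filter. The adjusted threshold was passed by 6 (16.2%), against 13.2% of all entries. Of these 6, miR-99b* and miR-138-1* had a WT mean under 32 and reached the limit for testing only through KO, where they were high, and without them 4 passed. The 6 included miR-328* and miR-210*, given above, and miR-211* at a log2 change of 0.75 (adjusted p = 0.0267 from limma). miR-99b* was higher at 0.99 (adjusted p = 0.0387). The 2 others were named after their values were seen. miR-138-1* was higher by 0.85 (adjusted p = 0.0387), from 19 to 35 in WT to 37 to 85 in the 5 remaining KO samples. KO1, left out here, was at 9. miR-486*, the passenger of a muscle-enriched miRNA encoded in the ankyrin gene Ank1, was lower by a log2 change of -0.93 (adjusted p = 0.0387). It ranged from 77 to 202 in WT and from 45 to 96 in the remaining KO samples, while KO1 was the highest of all at 248. miR-149* and miR-193b* were not among the 6, and the median change of the tested star strands without KO1 was 0.16, that of all entries -0.04. With KO2 left out instead, 5 of 34 star strands passed the unadjusted threshold and 0 the adjusted one.

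Each star strand was then compared with its unstarred strand. The log2 intensity of the star minus that of the unstarred strand was taken in each sample, so that a probe efficiency equal in all samples cancelled. An efficiency that differs between the dyes would not cancel, as dye and genotype go together, nor would any background left in dim values. KO was compared with WT over the 45 pairs of the whole array in which both strands reached the limit. Of the 22 pairs of the chosen hairpins, 17 had a change of the strand difference above 0 and 5 one below 0, with a median of 0.20 against 0.12 over all 45, of which 29 were above 0. At the unadjusted threshold 2 of the 22 passed, miR-99b* and miR-328*, against 3 of all 45 pairs (6.67%), which include these 2. miR-99b* had reached the limit only through KO, where it was higher, so the filter favoured its call. After adjustment none of the 22 passed in limma, and 0 passed by the methods' t-test. The unstarred strands of these pairs had a median log2 change of -0.43 and their stars one of -0.08, and 7 of the 22 unstarred strands passed the unadjusted threshold, all lower in KO, where 9.73% of all entries tested passed as lower.

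**Figure D3:**
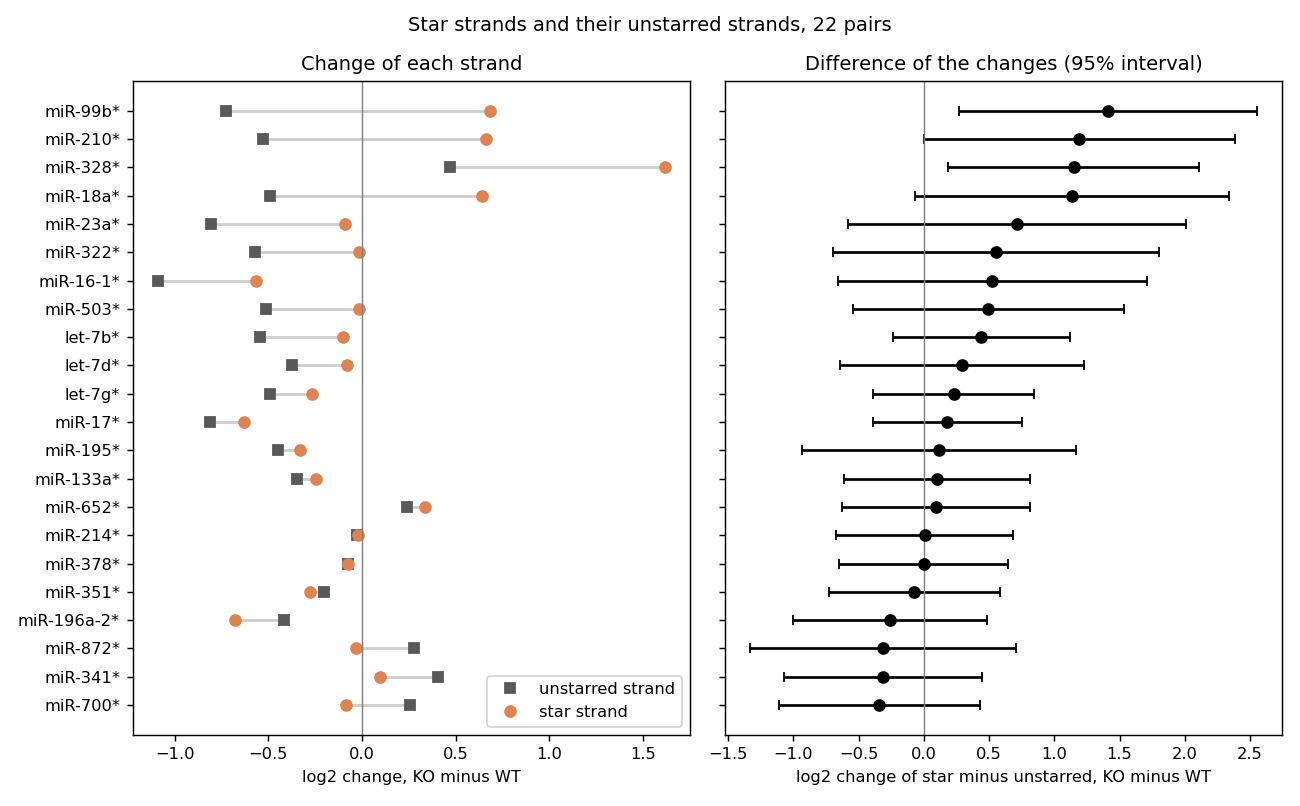
For the 22 pairs, the left panel gives the log2 change (KO minus WT) of the star strand (orange circle) and of the unstarred strand (grey square), and the right panel gives their difference with its 95% interval. The difference is above 0 in 17 pairs, and the interval leaves out 0 for miR-99b* (0.27 to 2.55) and miR-328* (0.18 to 2.11) alone.

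The pair with the smallest p was miR-99b. miR-99b lies in a cluster with let-7e and miR-125a. The star ranged from 20 to 35 in WT (median 21.5) and from 13 to 80 in KO (median 44), with 4 KO samples above every WT sample and KO1 below. Its WT mean of 23.7 was under the limit for testing. The unstarred strand ranged from 559 to 1343 in WT (median 995) and from 441 to 1067 in KO (median 481), with 4 KO samples below every WT sample. The star was thus higher and the guide lower on average, with log2 changes of 0.68 and -0.73. Their difference was 1.41 with a standard error of 0.540 (adjusted p = 0.339 from limma; exact permutation p = 0.0519). Without KO1 it was 1.90 (adjusted p = 0.00545).

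The strand difference of miR-328* was 1.15 with a standard error of 0.454 (adjusted p = 0.339 from limma). Here both strands were higher in KO on average, the star by 1.62 and the unstarred strand by 0.47 on the log2 scale, the latter with values of 113 to 213 in WT (median 151) and 115 to 383 in KO (median 217.5). Its unadjusted call was lost without WT1, KO3 or KO5, and without KO1 the difference was 1.28 (adjusted p = 0.0816).

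miR-210* and miR-18a* had strand differences of like size. That of miR-210* was 1.19 (95% interval -0.0029 to 2.39, adjusted p = 0.380 from limma), from a star change of 0.66 and a guide change of -0.53. The guide ranged from 38 to 133 in WT (median 70) and from 24 to 117 in KO (median 41.5). miR-18a* differed from miR-18a by 1.13 (95% interval -0.07 to 2.34, adjusted p = 0.380 from limma). Its star had 52 to 116 in WT (median 72.5) and 50 to 208 in KO (median 138.5), and its guide 46 to 130 in WT (median 75) and 26 to 130 in KO (median 52). For both hairpins the star was lowest and the guide highest among the KO samples in KO1. Without KO1 the strand differences were 1.71 (adjusted p = 0.00994) for miR-210* and 1.64 (adjusted p = 0.0144) for miR-18a*. With miR-99b*, which had reached the limit only through KO, these made 3 of the 23 pairs of the chosen hairpins past the adjusted threshold. Of the 46 pairs then tested 10.9% passed.

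The last pairs of the 6 with the smallest p were let-7b* and miR-23a*. let-7b, a miRNA of the differentiated state, ranged from 5533 to 7343 in WT (median 7150) and from 3559 to 5987 in KO (median 4829), and its star from 45 to 120 (median 70) and 42 to 108 (median 65.5). The strand difference was 0.44 (95% interval -0.24 to 1.12). miR-23a, which shares its transcript with miR-27a and miR-24, ranged from 2550 to 5847 in WT (median 4001.5) and from 1363 to 3672 in KO (median 2127). miR-23a* had 24 to 75 in WT (median 48.5) and 166 in KO1, against 30 to 35 in the other KO samples. The strand difference of 0.71 (95% interval -0.58 to 2.01) was 0.17 without KO1. Among the remaining pairs, those of miR-214* and miR-378* had a strand difference of 0.00 on the log2 scale, with 95% intervals of -0.67 to 0.68 and -0.65 to 0.65. They were named after their values were seen. The 22 intervals extended 0.571 to 1.29 to each side, so smaller differences between the strands were not detectable with 6 mice per group.

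By family, star strands and unstarred strands (called guides here) are given side by side, with calls at the unadjusted threshold and no test between them. Of all entries tested, 9.73% passed as lower and 19.5% in either direction. Of 10 let-7 star strands 3 were tested and none passed the unadjusted threshold, with a median log2 change of -0.10, whereas 4 of the 8 let-7 guides tested were lower (median -0.40). In the miR-17 clusters 3 of 14 star strands were tested, with miR-17* lower, and 3 of 10 guides were lower (median -0.52). The miR-23, miR-24 and miR-27 clusters had 1 tested star strand of 6, miR-23a*, and 4 of 5 guides lower (median -0.87). In the miR-15 and miR-16 family 5 of 8 star strands were tested, none passed (median -0.33), and 2 of 6 guides were lower (median -0.48). Of the 5 star strands of the miR-10, miR-99, miR-100 and miR-125 group, miR-99b* was the 1 tested (0.68), and 2 of 4 guides were lower (median -0.64). Among 8 star strands of muscle-enriched miRNAs, miR-133a* and miR-486* were tested and neither passed with all samples (median -0.42), nor did any of 4 guides (median -0.22). None of the star strands of the miR-30 family (6), the miR-29 family (4) or the blood cell miRNAs (4) was bright enough to test, and of their guides the 5 tested, all of the miR-30 family, did not pass. No guide tested in these lists passed as higher in KO.

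Properties of the strands that their choice did not use were described, position and base composition. In the RefSeq table miR-17* and miR-18a* lie within 10000 bases of each other, as do miR-193b* with miR-365-1* and miR-322* with miR-503*. Log2 changes were -0.63 and 0.64 in the first pair, 0.90 and 0.25 in the second and -0.02 and -0.02 in the third, and the differences between neighbours were not tested. Guanine was examined after the sequences of the higher strands were seen. It made up 68.2% of the bases of miR-149*, 50% of miR-193b*, 47.6% of miR-211* and 18.2% of miR-210*, a median of 48.8%, and a median of 22.7% (4.55% to 50%) in the 27 other tested stars with a sequence. The remaining higher strand, miR-328*, had the largest change but no matched sequence, so it is left out of these values. miR-23a* and miR-365-1*, at 50% and 47.8%, did not pass. Across the 31 strands, which are not independent and share the same samples, Spearman's rho of guanine share with log2 change was 0.19, and -0.12 without KO1. For the share of guanine and cytosine together it was 0.40, and 0.17 without KO1.

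**Figure D4:**
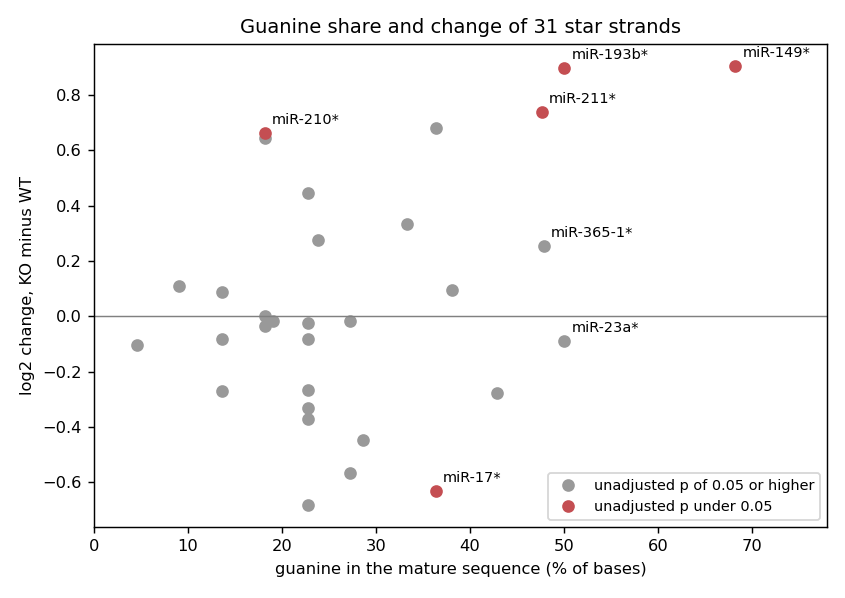
Each point is 1 of the 31 tested star strands with a sequence, with the percentage of guanine in the mature strand on the horizontal axis and the log2 change (KO minus WT) on the vertical axis. miR-328*, the strand with the largest change, had no matched sequence and is not shown. Red marks an unadjusted p under 0.05; miR-149*, miR-193b* and miR-211* lie at the upper right, while miR-23a* and miR-365-1* have a like guanine share and changes of -0.09 and 0.25.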

How the data were processed

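MicroRNA was measured in quadriceps of 6 WT and 6 KO mice, grouped by the labels, and all 12 samples were used. The intensities deposited by the authors are already normalized, whole numbers on a linear scale, with 1 value per miRNA name and sample. The normalization, background correction and averaging of spots are not given in the sources used here. An intensity has no count behind it, so the number of arrays limits the precision. The p-values set the difference between groups against the spread between samples. In that spread, differences between mice and measurement error are not separated.

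Log2 values were taken after a floor of 1, without further normalization. Entries needed a mean of at least 32 across all samples to be tested, and limma 3.58.1 (lmFit and eBayes, two-sided) in R 4.3.3 compared KO with WT. Benjamini-Hochberg adjustment ran over the 370 entries tested, or over the 45 pairs for strand differences. The unadjusted threshold of 0.05 is that of the study's methods for miRNAs, which name no test for them. The methods' t-test here is the Student's t-test that they name for mRNA. The fit was tested on simulated data. Exact permutation tests of the difference of mean log2 values were two-sided over all 924 assignments. Spearman's rho came from scipy 1.17.1. A log2 change is KO minus WT, and means are of linear intensities.

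The partner of a star is the name without the star or, where that is absent, also without the hairpin number. The strands named are those past the unadjusted threshold, the 6 brightest, and the 6 with the smallest p for the strand difference. The members, lists and tests were chosen with earlier results of these data known. Sequences came from the RefSeq tables of GRCm38.p6 (31 of 36 matched), with the arm of each star assigned by hand from the names of miRBase. Gene spans in those tables do not tell exons from introns. Genotype was not checked, as an array of miRNAs does not measure Cfl2. Alternatives were no filter, a minimum of 200, a pseudocount of 50, a floor of 32, cyclic loess, quantile normalization, median centring, the replicate block, the methods' t-test, a variance trend, array weights and each sample left out.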

Additional observations from a re-analysis of the deposited data

Results flagged for a closer look

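Of 30 groups of 6 samples (15 star strands in WT and KO), 5 held a sample set apart from the rest by Dixon's test. The test divides the distance to the closest sample by the range of the group, with a 95% critical value. The gaps are of log2 values, and the intensities printed beside them are linear. Chance gives about 1 in 20 groups, or 1.5 here. miR-34c* was 337 in WT1 and 985 to 1510 in the other WT samples (gap 0.715), and its log2 change of -0.27 was -0.56 without WT1. let-7d* was 383 in WT1 against 719 to 919 (gap 0.720) and 163 in KO1 against 562 to 1170 (gap 0.628). Its log2 change of -0.08 was -0.26 without WT1 and 0.32 without KO1. miR-23a* was 166 in KO1 and 30 to 35 in the other KO samples (gap 0.910), and its log2 change of -0.09 was -0.49 without KO1. miR-99b* was 35 in WT6 against 20 to 24 in the other WT samples (gap 0.674), and its log2 change of 0.68 was 0.80 without WT6. None of these changes passed the adjusted threshold in limma with the sample left out, with adjusted p of 0.283 to 0.854.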

How the results depend on the processing

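Of 21 single values (15 changes of star strands and 6 strand differences), 15 kept their direction wherever a value could be computed under 11 settings and with each of 12 samples left out. That was 463 values, and 20 could not be computed: 7 of the 21 had one with a minimum mean of 200, and the filter removed miR-99b* (change and strand difference) without KO2 or KO5 and miR-193b* without KO4 or KO5. The 6 star strands past the unadjusted threshold became 21 with no filter, 2 with a minimum mean of 200 and 12 with array weights, and 4 to 11 with 1 sample left out, 11 without KO1. The 0 past the adjusted threshold became 1 with a minimum of 200 (miR-328*), 1 by the methods' t-test (miR-211*) and 10 with array weights, and 0 to 6 with 1 sample left out: 6 without KO1, 1 without WT4 and 0 otherwise. Of the strand differences, 2 passed unadjusted, and 4 with a pseudocount of 50, 17 with no filter, 0 with a minimum of 200, 4 with quantile normalization, 4 with array weights and 0 to 7 with 1 sample left out (0 without KO5, 1 without WT1, KO2 or KO3, 4 without WT4 and 7 without KO1). The 0 past adjustment became 4 with array weights and 0 to 3 with 1 sample left out, 3 without KO1. With no filter and with a minimum of 200 the sets tested differ by construction. Array weights gave KO1 the lowest weight, 0.156, where the other samples had 0.50 to 3.31. The cause of the other shifts was not tested.

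Directions turned for 6 star strands, none of which passed a threshold. miR-341* was -0.0132 after quantile normalization and -0.31 to 0.36 with 1 sample left out. miR-322* was 0.0762 after cyclic loess and -0.0871 to 0.0250. miR-34c* was 0.28 with array weights and -0.56 to 0.33. let-7d* was 0.00277 after quantile normalization, 0.0374 after cyclic loess, 0.0432 with array weights and -0.26 to 0.32. With 1 sample left out let-7b* ran from -0.24 to 0.0480 and miR-23a* from -0.49 to 0.0595.

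The replicate numbers were not taken to pair the mice. The deviations of same-numbered samples correlated at 0.594, 0.020, -0.260, 0.219, 0.478 and -0.453, and samples 1 and 5 alone correlated best with their own number. With the replicate number as a block, 6 star strands and 4 strand differences passed the unadjusted threshold. Depth is limited by signal: 185 of the 221 star strands were below the limit for testing.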
